A study of Mus musculus with 24 samples.

Results

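Wild-type macrophages grown from mouse bone marrow were compared after exposure to sphingosine-1-phosphate (S1P) and without treatment, in 4 libraries each of the 24 in the series. Both groups came from C57BL/6 mice of WT genotype, whose marrow cells had been kept for 7 days in medium conditioned by L929 cells with fetal bovine serum. L929, a line of fibroblasts, secretes a growth factor that macrophages need. The treated wells received S1P at 500 nM for 24 hours; what medium or vehicle the untreated wells received, and for how long, is not stated in the labels. A gene was kept where its FPKM (mapped fragments adjusted for exon length and for the size of the library) reached 1 in at least 4 of these 8 libraries, which left 10754 of 54532 genes. Of these, 9921 reached that level in all 8 libraries. The filter kept 246 genes with exactly 4 libraries at that level and dropped 194 with exactly 3. It kept 75 genes through the S1P libraries alone and 46 through the untreated libraries alone, and 74 and 44 of these were called; a gene kept through 1 group had to differ.

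S1P is a lipid released by many cells, dying cells among them, that acts on a family of G protein-coupled receptors at the cell surface. Inside the cell it is made by sphingosine kinases and destroyed by a lyase and by phosphatases. In macrophages it is known for effects on migration, survival, cytokine output and the uptake of dead cells.

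The cells are a culture model of marrow-derived macrophages in serum and L929 medium, without tissue or other cell types. The labels name no animal, culture or batch, so every p-value below measures the spread between libraries, which may be technical. S1P and untreated libraries carry separate blocks of library numbers, so treatment cannot be told apart from the time or order of preparation. Depth recovered from the FPKM values was 17.7 to 19.7 M reads (M, 1e6) for untreated and 19.7 to 25 M for S1P libraries. One gene, Gm23935, took 5.29 to 9.18% of the summed FPKM in untreated and 8.82 to 11.9% in S1P libraries, so scaling to a common sum moves other genes with it. The S1P libraries were uneven: on the first principal component, with 73.8% of the variance, libraries 25, 26, 27 and 28 lay at 8.68, 16.5, 28.5 and 27, and the untreated libraries between -20.8 and -19.4. Core macrophage genes were present in all 8 libraries, with a summed FPKM over 10 genes of 8612 to 8913 untreated and 5355 to 7214 with S1P. Of fibroblast and of lymphoid, mast or erythroid markers none reached an FPKM of 1, and of 10 hepatocyte markers 5 (Apoa1, Apoc3, Serpina1a, Fgb and Tat) were at 0 throughout, Trf and Apoa2 passed the filter and Trf was lower (-0.46). The summed FPKM of the 10 was 2.5 to 3.27 untreated and 1.66 to 2.18 with S1P. The summed FPKM of 11 granulocyte markers was 7.74 to 10.4 untreated and 7.7 to 11.1 with S1P, and that of 8 dendritic cell markers 1.81 to 1.98 and 1.46 to 2.17. The part of core macrophage markers in the results below was not tested.

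The first comparison asked which genes S1P changed in WT cells. The response was broad and mostly small. Higher calls prevailed among antioxidant genes (40 of 49), and lower calls among genes of the cell cycle (42 of 43), of cholesterol synthesis and uptake (24 of 26) and of resident-type macrophages (18 of 32). In limma on log2(FPKM + 1), 5391 genes were called at a Benjamini-Hochberg adjusted p under 0.05, 50.1% of those tested, with 2642 higher (24.6%) and 2749 lower (25.6%). Counts of list members called, here and below, are to be read against these shares. All differences below are on that log2 scale, S1P minus untreated, with the SE of 4 libraries against 4; the scale understates the change of low genes. The split between directions depends on the scaling, with 2016 higher and 3233 lower after rescaling to a common sum. A difference of at least 1 was called for 322 genes (2.99%), 141 higher and 181 lower, of which 25 and 2 passed the filter through 1 group only; with a pseudocount of 0.1, or with voom on recovered reads, that count was 542 or 523. The FPKM ranges of the 2 groups did not overlap in 5067 genes (47.1%), and in 315 of the 322. In bulk RNA, fewer cells of a type and less RNA per cell cannot be told apart.

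**Figure D1:**
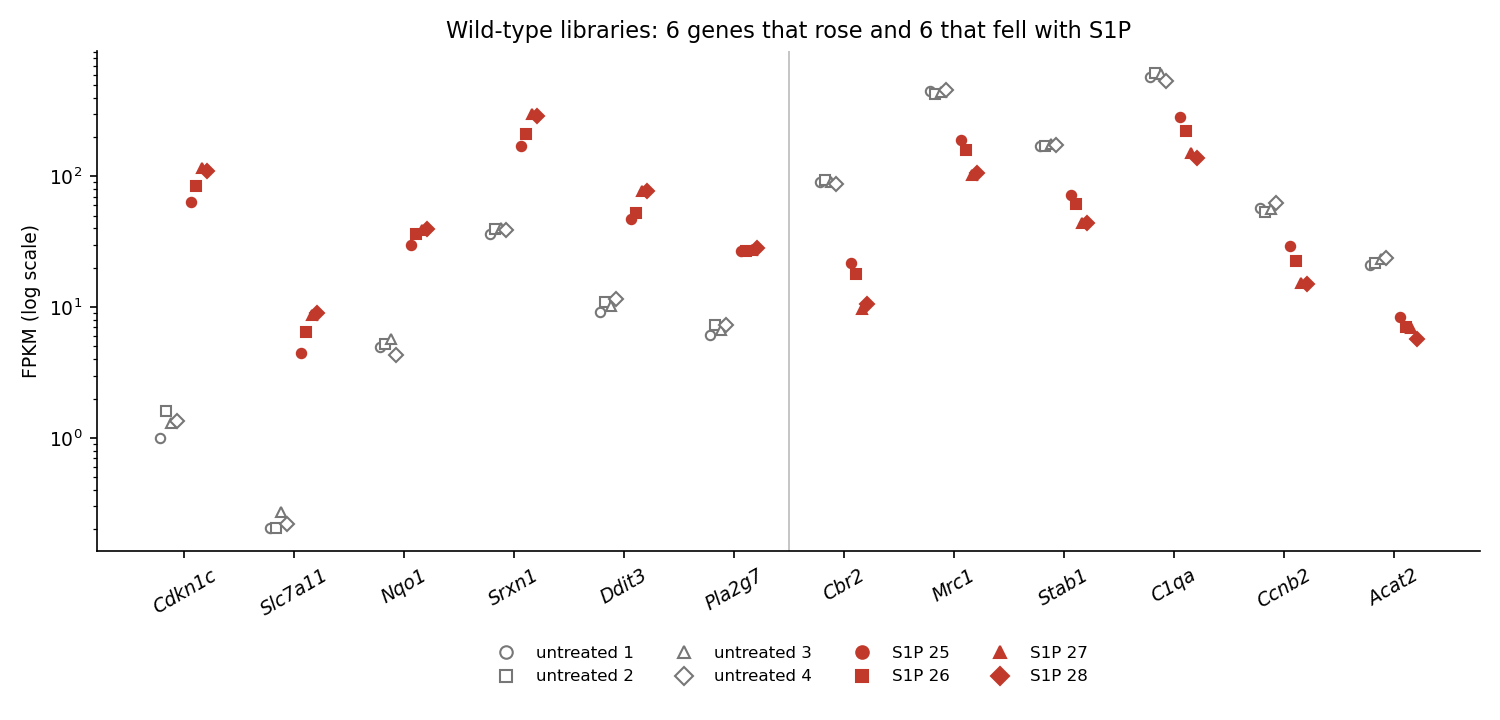
FPKM on a log axis of 12 genes in the 4 untreated (open symbols) and 4 S1P libraries (filled symbols) of wild-type cells, 1 symbol per library. S1P libraries 27 and 28 lie farthest from the untreated libraries in all 12 genes, by little in Pla2g7, which is nearly level over the 4.

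The largest rise was in Cdkn1c (ENSMUSG00000037664, GRCm38 chromosome 7, 143458339 to 143461050, protein coding), an inhibitor of cyclin-dependent kinases. Its FPKM was 0.999, 1.61, 1.3 and 1.34 in untreated libraries 1 to 4 and 63.4, 84.4, 115 and 111 in S1P libraries 25 to 28. The lowest S1P value was far above the highest untreated one, and libraries 27 and 28 stood highest. The difference was 5.32 ± 0.18 (SE; limma adjusted p = 4.11e-07). Serpinb9b, a serine protease inhibitor, went from 1.86, 1.59, 2.08 and 1.62 to 28.3, 37.3, 54.6 and 57, a difference of 3.97 ± 0.20. Procr, the protein C receptor, had 5.23, 4.44, 5.08 and 3.7 untreated and 42.8, 56.1, 79.4 and 75.5 with S1P (3.49 ± 0.18). Neither gene's groups overlapped, and in both library 25 was the lowest of the S1P libraries. Cox6a2, a subunit of cytochrome c oxidase known from heart and muscle, rose by 3.66 ± 0.18, and Sh2d6, an SH2 domain protein, by 2.71 ± 0.18. Hid1 and Ndrg4 rose by 2.45 ± 0.16 and 2.27 ± 0.19. Sh2d6 and Hid1 passed the filter only through the S1P libraries and so had to differ. The other 8 of the 15 largest rises belong to the antioxidant and stress groups below.

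The 4 S1P libraries were then compared with each other. For each library a response index was taken as the median, over the 322 genes, of its difference from the untreated mean as a percentage of the mean difference of all 4. It was 71.1% in library 25, 89.7% in library 26, 119% in library 27 and 117% in library 28. The genes and their mean differences come from these same libraries, so the index is a description. When the genes and the mean were taken from the other 3 libraries, it was 61.1, 85.9, 125 and 122%. Leaving a low library out enlarges the mean change it is set against, and leaving a high one out shrinks it. The wider spread is therefore in part arithmetic, and these values are a description too. Library 25 had the smallest change in 293 of the 322 genes, and both 25 and 26 were below both 27 and 28 in 298. The falls were more uneven than the rises: library 25 reached 64.8% of the mean fall and 78.7% of the mean rise, and library 27 125% and 115%. Depth also differed, with 22.7 and 25 M reads in libraries 25 and 26 and 19.7 M in each of 27 and 28. Over the 322 genes the median SD of log2(FPKM + 1) was 0.33 in S1P and 0.07 in untreated libraries, and over the genes not called it was 0.08 in both. Without library 25 the counts were 5664 called and 422 with a difference of at least 1; without library 27 they were 4589 and 251.

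**Figure D2:**
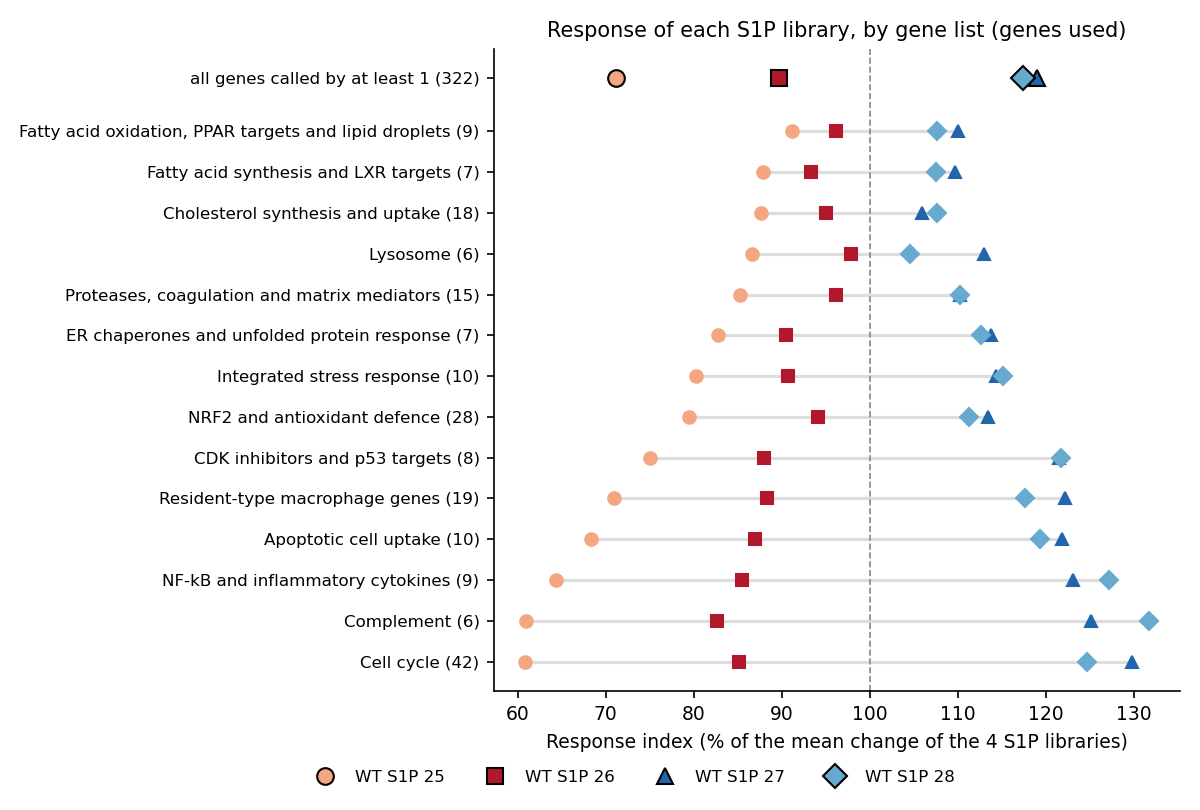
Response index of each S1P library (x axis, % of the mean change of the 4 libraries) over all 322 genes called with a difference of at least 1 and over each gene list with at least 5 members called with a difference of at least 0.5. Library 25 is lowest in each list drawn; the 4 libraries lie closest together in the fatty acid oxidation and cholesterol lists and widest in the complement and cell cycle lists.

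The genes with the widest spread over S1P libraries included mitotic genes, and those with the narrowest included lipid and antioxidant enzymes. Among genes with a difference of at least 1 and a mean FPKM of at least 5, the range over the S1P libraries as a share of the mean difference was largest for Alox5 (92%), the 5-lipoxygenase of leukotriene synthesis. Its FPKM was 14.7, 14.8, 13.7 and 14 untreated and 9.24, 7.55, 4.63 and 4.03 with S1P. Its difference from the untreated mean was -0.58 in library 25 and -1.60 in library 28. Espl1 (88.2%), the separase of mitosis, Tcf19 (87.8%), Plk1 (87%), a mitotic kinase, H2afv (85.3%), Cks2 (84.6%), Fbxo5 (84.3%) and Asf1b (84.0%) followed. At the other end stood Pla2g7, which encodes the phospholipase that breaks down platelet-activating factor, with a range of 3.75% of its difference. Its FPKM was 6.1, 7.3, 6.71 and 7.32 untreated and 26.7, 26.9, 27.2 and 28.1 with S1P (1.85 ± 0.05). Thbs1 (6.37%), thrombospondin, was as even, with 27, 28.2, 27.8 and 28.9 against 9.23, 9.71, 9.24 and 9.35 untreated (1.48 ± 0.04). Ifitm1 (9.80%), F13a1 (12.4%), Aacs (12.6%), Gstp1 (12.8%), Plin2 (14.3%) and Nqo1 (14.6%) made up the rest of the 8 most even genes. In both Pla2g7 and Thbs1 the 4 S1P libraries lay close together and above all untreated ones.

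**Figure D3:**
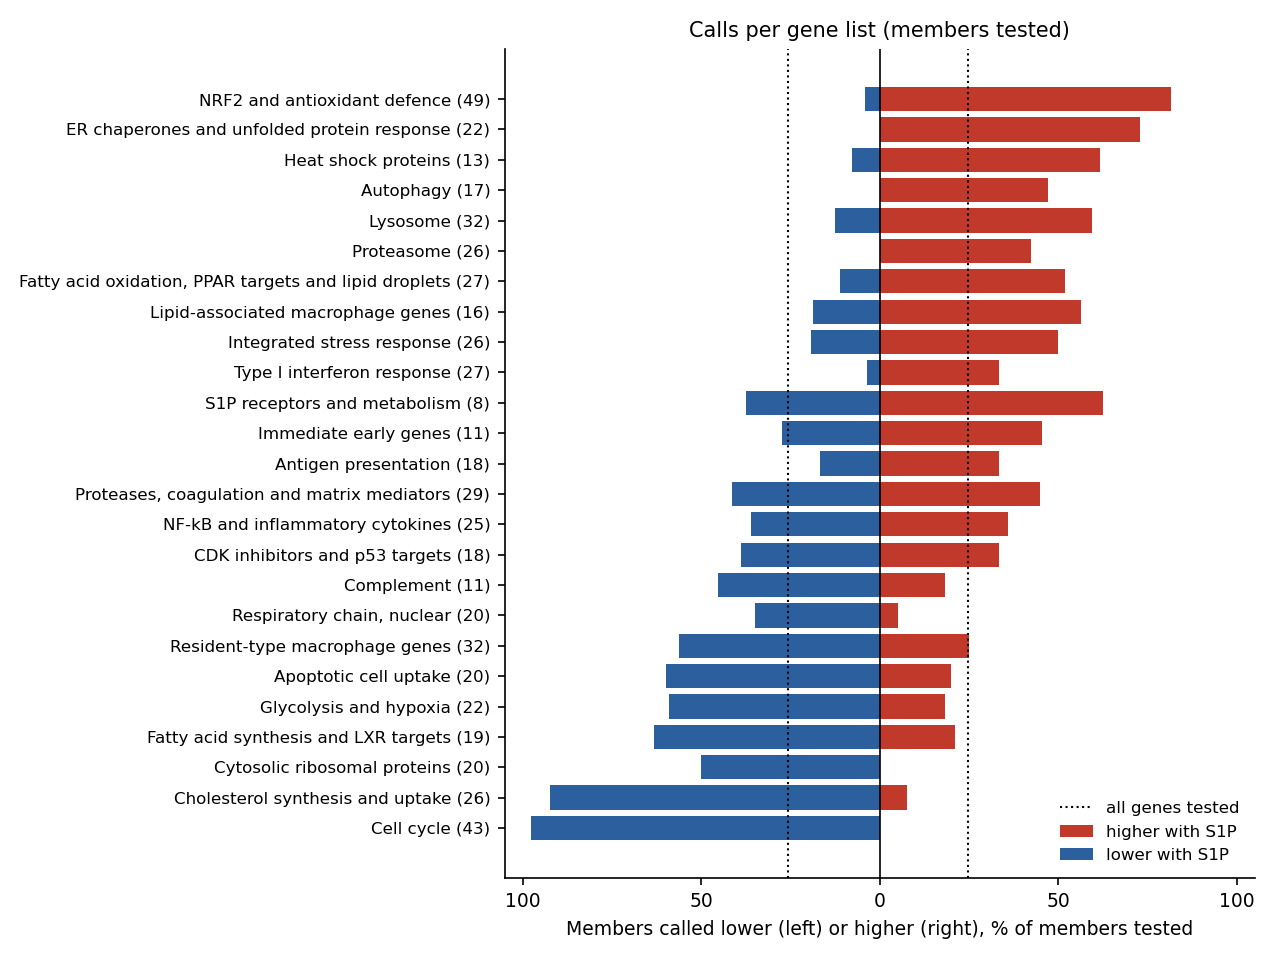
Share of each list's tested members called higher (right) or lower (left) with S1P, with the number tested in brackets and dotted lines at the shares over all genes tested (24.6% and 25.6%). The NRF2 list has the largest surplus of higher calls and the cell cycle list of lower calls.

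Cell cycle genes fell throughout. Of 43 genes tested 42 were lower and 0 higher, with a median difference of -1.12 against 0.00 over all genes tested; Ccnd2, a D-type cyclin, was not called, at -0.09 ± 0.11. All 22 genes of G2 and mitosis were lower, with differences from -1.49 to -1.02. Ccnb2, the mitotic cyclin B2, fell most among them, with an FPKM of 57.4, 53.3, 56.3 and 62.6 untreated and 29.2, 22.5, 15.3 and 15.1 with S1P (-1.49 ± 0.19, limma adjusted p = 0.00026). The 4 S1P values lay below all untreated values, with library 25 highest and libraries 27 and 28 at nearly the same level. Plk1 had 35.2, 36.4, 35.6 and 36.4 untreated and 22.4, 17.8, 11.2 and 10.1 with S1P (-1.24 ± 0.21). Of 21 genes of G1/S and replication 20 were lower, with Rrm1, a subunit of ribonucleotide reductase, at -1.09 ± 0.15 and Mcm4, of the replicative helicase, at -1.02 ± 0.12. The response index over 42 of these genes was 60.9% in library 25, 85.1% in 26, 130% in 27 and 125% in 28, and all 43 were lower in both 27 and 28 than in both 25 and 26. Over all genes tested 30.3% had that order, and over genes called lower 68.2%. Of 7 CDK inhibitors 1, Cdkn1c, was higher, 4 were lower and 2 were not called; Cdkn2c fell by 1.20 ± 0.14, Cdkn2d by 0.73 ± 0.11 and Cdkn2a by 0.69 ± 0.11. Of 11 targets of the tumour suppressor p53, 5 were higher and 3 lower, against 24.6% higher and 25.6% lower over all genes tested. Their differences ran from -0.84 to 0.88 and were lowest in Sesn1. Among the higher were Bbc3, a death-promoting BCL2 relative, at 0.88 ± 0.09 and Mdm2, a feedback inhibitor of p53, at 0.56 ± 0.05.

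Most promoters listed for the G2 and mitosis genes held a short sequence. TTTGAA, the core of the cell cycle homology region, was searched on both strands in the 300 bases from 250 before to 50 after each gene's start in the RefSeq promoters of GRCm38.p6. It stood in 13 of the 18 G2 and mitosis genes with a promoter in that table (72.2%), in 1 of 15 of G1/S and replication (6.67%), and in 1180 of 8164 genes tested (14.5%). It stood in 71 of 143 genes called lower by at least 1 (49.7%) and in 12 of 99 called higher by at least 1 (12.1%). A gene with several listed starts counts once if any of them has the letters. The windows below, each 20 bases either side of the match (capitals) and written 5′ to 3′ on the gene's own strand, are from genes of the list that fell.
Ccnb2, chr9:70421696-70421741, minus strand: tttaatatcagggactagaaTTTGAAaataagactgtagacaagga
Cdk1, chr10:69352958-69353003, minus strand: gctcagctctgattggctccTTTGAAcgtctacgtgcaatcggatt
Mki67, chr7:135716452-135716497, minus strand: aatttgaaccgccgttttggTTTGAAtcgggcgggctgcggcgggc
Top2a, chr11:99024343-99024388, minus strand: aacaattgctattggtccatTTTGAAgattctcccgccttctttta
These 4 genes, a cyclin, the mitotic kinase, the proliferation antigen Ki-67 and a topoisomerase, differed by -1.49, -1.02, -1.32 and -1.28. A match describes the letters and is not a test of binding. The E2F element TTTCCCGC stood in 3 of 15 promoters of G1/S and replication genes (20%), 0 of 18 of G2 and mitosis genes, and 2.55% of genes tested.

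Most antioxidant defence genes were called higher. NRF2 is a transcription factor that turns on such genes through the antioxidant response element in their promoters. Of 49 genes on its list 40 were higher and 2 lower. The 13 glutathione genes tested were higher; 3 of them, Slc7a11, Gsta3 and Gsta4, passed the filter only through the S1P libraries and could only be called higher. Slc7a11, which brings in cystine for glutathione, had an FPKM of 0.206, 0.204, 0.273 and 0.219 untreated and 4.45, 6.4, 8.65 and 8.95 with S1P (2.69 ± 0.17). Gclm, the modifier subunit of the first enzyme of glutathione synthesis, went from 11.8, 12, 12 and 12 to 40.9, 50.3, 68.1 and 71.3 (2.14 ± 0.15, limma adjusted p = 1.79e-05). Gsr, glutathione reductase, rose by 1.25 ± 0.07. In all 3 genes library 25 was the lowest S1P library and still above every untreated one.

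Of 10 genes of the thioredoxin system and peroxide removal 8 were higher. Srxn1, sulfiredoxin, which repairs peroxiredoxins, had 36.4, 39.8, 40.6 and 39.1 untreated and 171, 209.5, 299 and 288 with S1P (2.57 ± 0.16). Prdx1, a peroxiredoxin, reached 1287, 1482, 1827 and 1851 from 372, 363, 377 and 376 (2.10 ± 0.11). Catalase (Cat) rose by 1.79 ± 0.11 and Prdx6 by 1.81 ± 0.09, while Prdx2 and Sod2 were not called. Of 14 genes of NADPH supply and detoxification 11 were higher and 1, Idh1, lower. Nqo1, a quinone reductase, had 4.93, 5.25, 5.73 and 4.28 untreated and 29.9, 36.5, 38.7 and 39.3 with S1P (2.62 ± 0.10), one of the evenest responses. The regulators differed among themselves: Sqstm1, the cargo receptor p62 that binds the NRF2 inhibitor, rose by 2.30 ± 0.19 from 145, 152, 153 and 148 to 497, 661, 988 and 931, Bach1, a repressor of the same element, rose by 0.37 ± 0.05, and Nfe2l2, which encodes NRF2, was not called, at -0.09 ± 0.04, but was called lower after rescaling to a common sum (-0.14), without library 25 (-0.12), and with quantile normalization, array weights or all 24 libraries. Of 6 heme and iron genes 5 were higher, with the iron exporter Slc40a1 at 0.74 ± 0.07, and Blvra, biliverdin reductase, was lower, at -0.54 ± 0.08.

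The antioxidant response element was searched as TGACNNNGC on both strands of the same promoters. It stood in 14 of 42 genes of the NRF2 list (33.3%), against 1408 of 8164 genes tested (17.2%), and in 20 of 99 genes called higher by at least 1 (20.2%). The share was no lower in the type I interferon list (7 of 20, 35%) and the complement list (3 of 8, 37.5%). Nor was it lower in the list of CDK inhibitors and p53 targets (5 of 15, 33.3%) or among osteoclast markers (2 of 4, 50%). In the remaining lists it was lower, as in that of resident-type macrophage genes (2 of 26, 7.69%). Blvra, which was called lower, also had a match. The windows are from 4 genes called higher.
Prdx1, chr4:116685446-116685494, plus strand: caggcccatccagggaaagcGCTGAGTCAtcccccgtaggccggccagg
Gclm, chr3:122245403-122245451, plus strand: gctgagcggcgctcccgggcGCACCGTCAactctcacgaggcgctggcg
Txnrd1, chr10:82859094-82859142, plus strand: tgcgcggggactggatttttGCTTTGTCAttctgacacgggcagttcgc
Gsta3, chr1:21240444-21240492, plus strand: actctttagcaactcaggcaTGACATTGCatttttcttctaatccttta
Txnrd1, thioredoxin reductase, and Gsta3, a glutathione transferase, rose by 1.12 and 1.53, Gsta3 having passed the filter only through the S1P libraries. The element lies on the gene's opposite strand in the windows of Prdx1, Gclm and Txnrd1, so their capitals read as its reverse complement.

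Part of the integrated stress response rose. In this pathway kinases that sense amino acid shortage, endoplasmic reticulum stress, heme or double-stranded RNA slow translation and raise ATF4 and its targets. All 8 genes of its transcription factor group were higher. Ddit3, which encodes CHOP, had an FPKM of 9.22, 10.9, 10.1 and 11.4 untreated and 46.9, 52.6, 76.7 and 77.5 with S1P (2.47 ± 0.16). Trib3, a pseudokinase induced by this pathway, went from 8.94, 9.1, 9.01 and 8.6 to 35.3, 42.4, 57.4 and 57.8 (2.28 ± 0.14). Ppp1r15a, the subunit that brings translation back, went from 5.34, 4.78, 4.34 and 4.18 to 17.9, 21.1, 31.5 and 29.9 (2.17 ± 0.16). In these 3 genes libraries 27 and 28 stood well above 25 and 26. Atf3 rose by 1.36 ± 0.11 and Atf5 by 1.13 ± 0.12. The amino acid genes of this list, which ATF4 is known to control, did not move with them as a group. Of 12 tested 2 were higher, 3 lower and 7 not called. Slc7a11, counted on the antioxidant list and kept only through the S1P libraries, rose by 2.69 and is not among the 12. Slc6a9, a glycine transporter, and Slc3a2, the partner chain of Slc7a11, rose by 1.83 ± 0.13 and 1.26 ± 0.14; Slc6a9 passed the filter only through the S1P libraries. Psat1, of serine synthesis, fell, with 27.2, 27.2, 29.9 and 29.5 untreated and 15.1, 14.6, 12.8 and 12.4 with S1P (-1.0 ± 0.07). Shmt2, of the mitochondrial folate cycle, fell by 0.48 ± 0.04, and Asns, asparagine synthetase, was not called, at 0.16 ± 0.09. The C/EBP-ATF response element, searched as TGATGNAA on both strands, stood in 7 of 27 promoters of the list (25.9%) and in 2.73% of genes tested. The promoter of Slc7a11, on the antioxidant list, also held the element. By role the element stood in 3 of 8 promoters of the group listed as transcription factors (37.5%) and 4 of 13 of the amino acid genes (30.8%). In the feedback and kinase group it stood in 0 of 6. Its match in Atf3, on the strand opposite to the gene, is shown here.
Atf3, chr1:191183416-191183463, minus strand: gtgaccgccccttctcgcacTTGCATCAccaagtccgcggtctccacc
Of 22 genes of the endoplasmic reticulum list 16 were higher and 0 lower, with a median of 0.26. Dnajb9, a co-chaperone, rose by 1.31 ± 0.12, and Hspa5, the chaperone BiP, went from 335, 310.5, 344 and 337 to 539, 562, 643 and 639 (0.84 ± 0.07). The chaperones Hsp90b1, Pdia4 and Pdia6 were not called.

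Cholesterol synthesis genes fell. The 20 genes tested of its synthesis list were lower, with differences from -1.56 to -0.32; 1 of them, Fdps, passed the filter only through the untreated libraries. Acat2, a thiolase at its start, had an FPKM of 21.1, 21.7, 23.1 and 23.8 untreated and 8.39, 7.01, 6.88 and 5.68 with S1P (-1.56 ± 0.09, limma adjusted p = 8.39e-06). The groups did not overlap. Hmgcs1, whose enzyme makes HMG-CoA, differed by -0.99 ± 0.07. Among regulators, Srebf2, the transcription factor of the pathway, fell by 0.45 ± 0.04 and Insig1 by 0.57 ± 0.04, and Scap, the partner of SREBP, and Insig2 were higher, at 0.24 ± 0.07 and 0.26 ± 0.04. The call of Scap was lost without untreated library 3 (limma adjusted p = 0.0504) or S1P library 27 (0.0535) and with no filter (0.0533). Stard4, a sterol carrier, fell by 1.06 ± 0.10. The response index over 18 genes of the list was 87.6% in library 25, 95.0% in 26, 106% in 27 and 108% in 28, much closer together than over the cell cycle genes. The sterol response element TCACNCCAC stood, on either strand, in 1 of 20 promoters of the list (5%), that of Hmgcs1, and in 1.42% of genes tested.
Hmgcs1, chr13:119690194-119690242, plus strand: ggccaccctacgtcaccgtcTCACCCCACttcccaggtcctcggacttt

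Fatty acid synthesis fell with it. Of 11 genes 10 were lower, and Acss2, an acetyl-CoA synthetase, was higher, at 0.72 ± 0.11. Fasn, fatty acid synthase, had 36.7, 37.9, 37.8 and 37.5 untreated and 15.6, 15.4, 12.9 and 13.2 with S1P (-1.34 ± 0.06); the desaturases Scd2 and Scd1 fell by 1.06 ± 0.07 and 0.92 ± 0.04. Of 8 genes of the LXR group 3 were higher and 2 lower, with the cholesterol exporter Abca1 at -0.45 ± 0.09 and Mylip, a ubiquitin ligase, at 0.46 ± 0.07. Of 10 genes of lipid droplets and fatty acid binding 7 were higher, 2 lower and 1 not called; the lower ones were the binding proteins Fabp4 (-0.35) and Fabp5 (-0.35). Plin2, the main droplet coat protein of macrophages, had 162, 164, 166 and 167 untreated and 550.0, 606, 664 and 661 with S1P (1.90 ± 0.06). Hilpda, a lipase inhibitor at droplets, rose by 1.18 ± 0.09, and Pparg, a nuclear receptor for fatty acids, by 0.72 ± 0.09. Cpt1a, which lets fatty acids into mitochondria, went from 23, 24.2, 24.3 and 22 to 46.6, 45.8, 47.6 and 48.1 (0.98 ± 0.04), with no S1P library standing apart. Acot2, a mitochondrial thioesterase, rose by 2.09 ± 0.13. Of 13 oxidation genes 5 were higher, 0 lower and 8 not called, the dehydrogenases Acadl and Acadm among the last. The index over 9 genes of this list was 91.1, 96.2, 110 and 108% in libraries 25 to 28.

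More genes known from resident-type macrophages fell than rose. Of 32 tested 18 were lower and 8 higher, with a median of -0.41. Over all genes tested 25.6% were lower and 24.6% higher, so the higher calls here are near the share over all genes. By role, 11 of 15 surface and secreted genes were lower and 2 higher. Of 9 scavenger and lectin receptors 4 were lower and 2 higher, and of 8 regulators 3 were lower and 4 higher. Cd209f, Lyve1, Timd4, Ccl24 and Cx3cr1 did not pass the filter, with Cd209f and Timd4 at 0 in all 8 libraries. Cbr2, a carbonyl reductase (GRCm38 chromosome 11, 120729489 to 120732114, protein coding), had the largest fall of all genes called, with 90.6, 93.7, 90.2 and 87.5 untreated and 21.9, 17.9, 9.59 and 10.6 with S1P (-2.59 ± 0.22, limma adjusted p = 4.20e-05). Fcrls, an Fc receptor-like scavenger receptor, went from 56.3, 57.3, 56.6 and 52.8 to 15.7, 12.4, 7.52 and 8.13 (-2.31 ± 0.19). Libraries 27 and 28 were below 25 and 26 in both. The mannose receptor Mrc1 went from 452, 427, 439 and 454 to 191, 159, 103 and 107 (-1.71 ± 0.18). Stab1, stabilin-1, went from 169, 170.1, 175 and 172 to 71.4, 61.1, 43.7 and 43.6 (-1.66 ± 0.15). F13a1, a chain of coagulation factor XIII, had 9.6, 8.45, 8.36 and 8.33 untreated and 1.41, 1.13, 1.02 and 1 with S1P (-2.18 ± 0.07), an even fall. The transcription factor Maf fell by 1.16 ± 0.16 and Klf2 by 0.63 ± 0.10, whereas Cebpa rose, by 0.95 ± 0.12. Clec4n, the lectin Dectin-2, rose by 1.55 ± 0.16, with 60.8, 63.2, 64.5 and 65.2 untreated and 133, 171, 232 and 230.5 with S1P. Outside the list, the inhibitory receptors Cd33 and Fcgr2b fell by 1.69 ± 0.12 and 1.51 ± 0.12, the ADP receptor P2ry13 by 1.52 ± 0.16 and Nxpe5 by 1.48 ± 0.11.

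Complement and dead-cell uptake genes overlap with that group. The 3 chains of C1q fell, C1qa from 572, 611, 601 and 532 to 284, 223, 152 and 139 (-1.59 ± 0.20), C1qb by 1.16 ± 0.16 and C1qc by 1.13 ± 0.17. C3, the central complement protein, rose by 0.60 ± 0.10, with 19, 18.4, 19.4 and 19.6 untreated and 36.7, 30.3, 27 and 25.4 with S1P, highest in library 25. Of 20 uptake genes 12 were lower and 4 higher, against 25.6% lower and 24.6% higher over all genes tested. The bridging ligands Gas6 and Pros1 fell by 1.30 ± 0.14 and 0.78 ± 0.09 and their receptor Mertk by 0.37 ± 0.05. Itgb3, an integrin chain, and the scavenger receptor Cd36 rose, by 1.39 ± 0.15 and 0.61 ± 0.04. Among 16 lipid-associated macrophage genes 9 were higher and 3 lower, against the same shares over all genes tested. Gpnmb was at 0.44 ± 0.05 and Lpl, lipoprotein lipase, at 0.58 ± 0.03. Of 32 lysosomal genes 19 were higher and 4 lower, against the same shares. Lipa, the acid lipase, went from 316, 313, 311 and 320.5 to 587, 620.4, 654 and 659 (1.00 ± 0.04), and Psap rose by 0.60 ± 0.05.

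Osteoclasts arise from the same precursors, and their genes were counted as markers of another fate. Of 8 listed 5 were tested and 4 were higher, against 24.6% over all genes tested. The 4 were Mmp9, a gelatinase, Atp6v0d2, a proton pump subunit, Acp5 and Dcstamp, a fusion protein. Ctsk was tested and not called, and Ocstamp and Oscar did not pass the filter. Atp6v0d2 had 10.3, 10.3, 9.8 and 11.4 untreated and 18.6, 23.6, 36.6 and 36.2 with S1P (1.32 ± 0.19). Mmp9 had 3.42, 3.94, 3.54 and 3.96 untreated and 17.9, 15, 12.2 and 10.3 with S1P (1.63 ± 0.14), with library 25 highest. Calcr, the calcitonin receptor, was at 0 in all 8 libraries. The summed FPKM of the 8 genes was 18.3 to 20.8 untreated and 44.1 to 57.8 with S1P. On the list of proteases, coagulation and matrix mediators, which also holds Mmp9, 13 of 29 were higher and 12 lower. Mmp8, a collagenase, had 67.8, 65.6, 72.9 and 68.7 untreated and 15.1, 12.5, 11 and 11.1 with S1P (-2.39 ± 0.09), and Mmp27 fell by 1.84 ± 0.12. Plau, urokinase, and Serpinb2, its inhibitor, fell by 1.12 ± 0.07 and 1.31 ± 0.08; Serpinb2 passed the filter only through the untreated libraries. Vegfa, a vascular growth factor, and Pdgfb rose by 0.80 ± 0.07 and 0.72 ± 0.08.

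Inflammatory genes showed no common direction. Of 25 tested 9 were higher and 9 lower, with a median of 0.01. Csf1, the macrophage growth factor, had 9.88, 8.94, 9.21 and 9.38 untreated and 22.4, 30.9, 61 and 56.8 with S1P (1.97 ± 0.28, limma adjusted p = 0.000471). Libraries 25 and 26 lay above all untreated libraries and below both 27 and 28. Acod1, which makes itaconate, went from 28.7, 24.9, 26.7 and 28.2 to 69, 60.0, 68.1 and 61 (1.22 ± 0.06). Tnf fell by 0.52 ± 0.09, and the chemokine Ccl6 by 0.97 ± 0.13, while Ccl5 and Cxcl3 rose by 0.78 ± 0.07 and 0.86 ± 0.10. Il1b, Il6 and Nos2 stayed below an FPKM of 1 in all 8 libraries, at most 0.293, 0.165 and 0.325. Cd86, a costimulatory ligand, rose by 1.16 ± 0.07, and the class II genes Cd74 and H2-Aa fell by 0.45 ± 0.07 and 0.31 ± 0.08.

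Type I interferon response genes graded the other way. Of 27 tested 9 were higher, 1 was lower and 17 were not called, with a median of 0.08, against 24.6% higher and 25.6% lower over all genes. Of the 27, 26 were lower in both library 27 and library 28 than in both 25 and 26; the exception was Irf9, with 18.5, 18.2, 18.4 and 16.5. Over all genes tested 30.3% had that order, over genes called higher 5.37%, and over genes called lower 68.2%. The median difference of the list from untreated cells was 0.34 in library 25, 0.17 in 26, -0.02 in 27 and -0.06 in 28. That of the antigen presentation list graded in the same direction, at 0.14, 0.06, -0.07 and -0.11. Of its 18 genes 11 were lower in both 27 and 28 than in both 25 and 26 (61.1%). Irf7, a regulator of the response, had 51.4, 52.8, 55.1 and 52 untreated and 81.8, 71.8, 61 and 55.2 with S1P (0.33 ± 0.11, limma adjusted p = 0.0267); its call was lost without untreated library 1, 2 or 4 or S1P library 26, at adjusted p from 0.0539 to 0.0686, and with all 24 libraries in the fit (0.0555) or no filter (0.0772). Isg15, a ubiquitin-like protein, had 97.4, 101, 92.8 and 83.2 untreated and 162, 142, 116 and 114 with S1P (0.49 ± 0.11). Ifit1 went from 22.9, 21.4, 23.4 and 22.5 to 41.8, 36.1, 31.7 and 34.1 (0.64 ± 0.08), Oas3 rose by 0.29 ± 0.06, and Rsad2, viperin, with 33.1, 26.3, 29.2 and 25.8 untreated and 57.3, 51.4, 50.7 and 47.8 with S1P, rose by 0.84 ± 0.08. Stat2, a transcription factor of the response, was not called (-0.07 ± 0.09), with 47.1, 44.7, 44.9 and 44.1 untreated and 52, 45.7, 38.3 and 37.6 with S1P, so that library 25 lay above and libraries 27 and 28 below every untreated library. Ifi27l2a, the 1 member called lower and named after its values were seen, had 929, 989.7, 1181 and 956 untreated and 872, 769.5, 628 and 623 with S1P. Among all called genes 232 had both 27 and 28 nearer to the untreated mean than 25 and 26, as C3, Mmp9 and Irf7 do, against 3413 with the opposite order. Whether the order of interferon genes bears on that of the other genes was not tested.

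**Figure D4:**
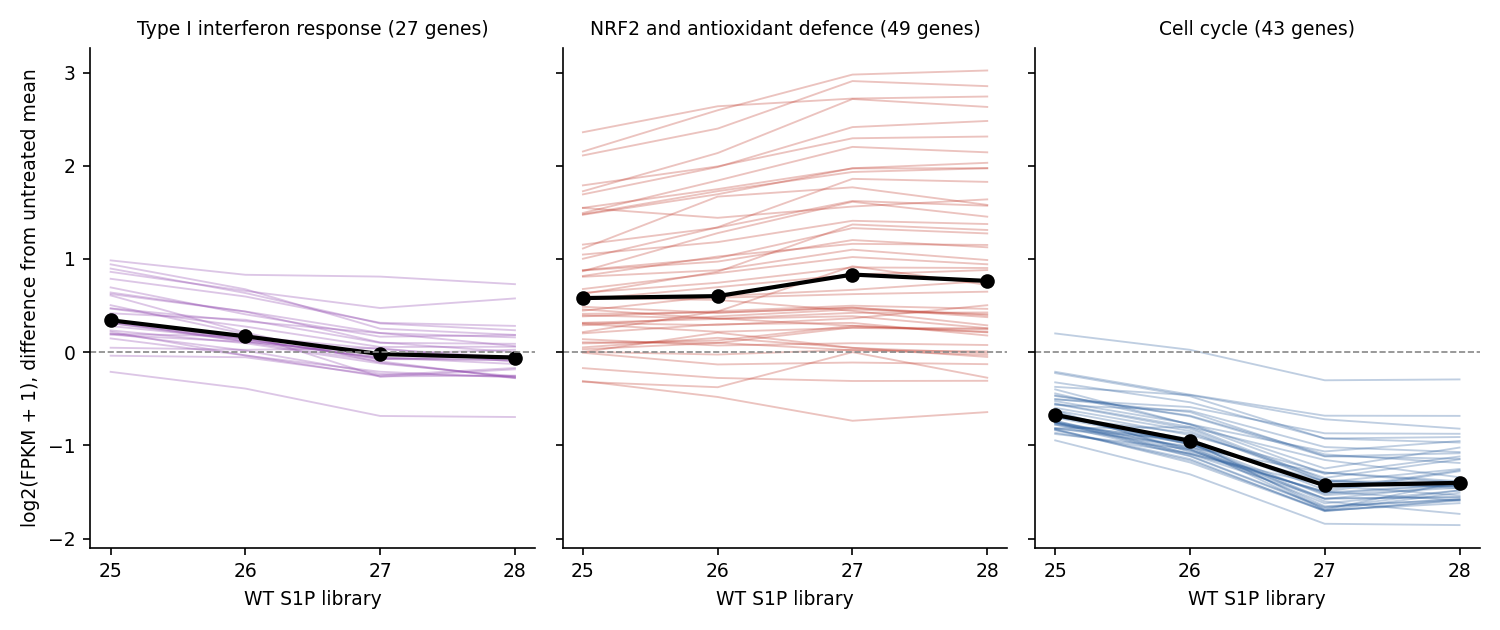
Difference from the untreated mean in log2(FPKM + 1) (y axis) of each gene (thin lines, joining 1 gene's values in the 4 S1P libraries) and of the list median (black) for 3 lists. The median of the interferon genes is 0.34 in library 25 and near 0 in 27 and 28, with single genes well off 0 there; the NRF2 median is higher and the cell cycle median lower in 27 and 28 than in 25.

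The receptors for S1P changed little. S1pr2 had 11.8, 12.3, 12 and 11.4 untreated and 14.8, 15.8, 16.9 and 16.6 with S1P, higher in every S1P library (0.40 ± 0.05, limma adjusted p = 0.000182). S1pr1 had 30.7, 35.8, 34.3 and 36.3 untreated and 33.2, 29.9, 27.5 and 27.6 with S1P; the groups overlapped, and the call (-0.21 ± 0.07, limma adjusted p = 0.0365) was lost without untreated library 2, 3 or 4 or S1P library 26, 27 or 28, at adjusted p from 0.0630 to 0.0956, and with no filter (0.0891). S1pr3, S1pr4 and S1pr5 did not pass the filter, at no more than 0.0228, 0.980 and 0.0609. Of the kinases, Sphk2 rose, with 16.6, 18.8, 17.1 and 17.8 untreated and 23.9, 25.8, 32.4 and 31.2 with S1P (0.65 ± 0.09), and Sphk1, which did not pass the filter and was not tested, had 0.0231, 0.0106, 0.0356 and 0.0106 untreated and 0.102, 0.193, 0.712 and 0.872 with S1P, without overlap. Plpp3, a lipid phosphatase of the cell surface, had 0.366, 0.433, 0.43 and 0.418 untreated and 1.66, 1.99, 2.81 and 3.47 with S1P (1.27 ± 0.15), and the lyase Sgpl1 rose by 0.14 ± 0.03, a call lost after rescaling to a common sum (0.10, limma adjusted p = 0.0798) and with quantile normalization (0.0642). Sgpp1, a phosphatase inside the cell, fell by 0.43 ± 0.07. Plpp3 passed the filter only through the S1P libraries, so its call was fixed, and the other 7 members tested were called, in a table where 50.1% of genes were. Trem2, the lipid receptor that the series studies (chromosome 17, 48346401 to 48354147), had 74.5, 82.7, 75.3 and 78.6 untreated and 97.7, 103, 109 and 104 with S1P. The difference was 0.41 ± 0.05 (limma adjusted p = 0.00018), and an exact 2-sided permutation test over 70 arrangements gave p = 0.0286, the smallest it can give. Its adaptor Tyrobp was not called, at -0.08 ± 0.06.

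The counts of the other lists are to be read against 24.6% higher and 25.6% lower over all genes tested. Of 22 glycolysis and hypoxia genes 13 were lower and 4 higher, with Ldha at -0.34 ± 0.05, Bnip3, of mitophagy, at -0.70 ± 0.05 and Ankrd37 at -1.16 ± 0.08. Of 20 nuclear respiratory chain genes 7 were lower and 1 higher, and of 20 ribosomal protein genes 10 were lower and 0 higher, the largest fall being that of Rpl3 (-0.29 ± 0.04). Of 26 proteasome genes 11 were higher and 0 lower, with Psmb5 at 0.54 ± 0.07; of 17 autophagy genes 8 were higher and 0 lower, with Gabarapl1 at 0.83 ± 0.10 and Map1lc3a at 0.83 ± 0.10. Of 13 heat shock genes 8 were higher and 1 lower, led by Hspa9, the mitochondrial chaperone, at 0.87 ± 0.11. Of 11 immediate early genes 5 were higher and 3 lower, with the phosphatase Dusp1 at 0.97 ± 0.12 and Ier2 at -0.57 ± 0.09. Of 18 antigen presentation genes 6 were higher and 3 lower, with a median of -0.02, and H2-D1, of class I, rose by 0.67 ± 0.06. Among core macrophage markers 5 were lower and 2 higher of 10, with Lyz2, a lysozyme gene that can share reads with its near copy Lyz1, at -0.84 ± 0.13, Itgam at -0.95 ± 0.13 and Cd68 at 0.28 ± 0.05.

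The same contrast was examined in KO cells, from mice with Trem2 knocked out, in 8 libraries that played no part in choosing these genes. In 4 KO S1P against 4 KO untreated libraries limma called 0 of 10735 genes (0%), with 979 at an unadjusted p under 0.05. The Trem2 FPKM of the library labelled KO untreated 81 was 79.6, within the WT untreated range, against 35.7 to 40.2 in the other 3 and 38.5 to 40.7 in KO S1P libraries; without it 2 genes were called and 1340 had an unadjusted p under 0.05. Other genes of library 81 were not all in the WT untreated range. Acod1 at 56.6 (WT untreated 24.9 to 28.7), C3 at 31.7 (18.4 to 19.6) and F13a1 at 4.48 (8.33 to 9.6) lay outside it. Acat2, at 21.5 (21.1 to 23.8), lay inside. Of the 141 genes that rose by at least 1 in WT cells 113 were tested in KO cells, where their median difference was -0.02 (0.02 without library 81) against 1.36 over the 141 in WT. The median of the 181 that fell was 0.02 in KO (-0.01 without library 81) and -1.14 in WT. The interaction of genotype and S1P over 16 libraries was called for 4373 of 11187 genes (39.1%; 4391 without library 81). For genes chosen by a large WT difference the interaction reuses that difference, so its sign below is largely fixed by the choice and is a description; the KO values are not. Cdkn1c had 1.19, 1.45, 2.63 and 1.05 in KO untreated libraries 79 to 82 and 0.768, 1.03, 0.757 and 0.992 in KO S1P libraries 91 to 94, an interaction of -5.73 (-5.56 without library 81). The KO S1P libraries lay below the KO untreated ones, though the KO difference was not called. Nqo1 had 7.17, 7.63, 4.74 and 6.64 and 6.64, 7.71, 7.36 and 7.84, with an interaction of -2.45 (-2.57 without library 81). Cbr2 had 145, 139, 59.3 and 144 and 119, 132, 126 and 137, with 2.75 (2.44). In Nqo1 the KO ranges overlapped, and in Cbr2 they overlapped only through library 81, the other 3 untreated values lying above every KO S1P value. For Trem2 the interaction was -0.62 (limma adjusted p = 0.0531), and -0.36 without library 81 (adjusted p = 0.000666). WT libraries have lower library numbers than KO libraries, so genotype cannot be told apart from preparation. FPKM covers the whole gene and the knockout allele is not described in the labels, so Trem2 reads do not show which part of the gene they cover.

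**Figure D5:**
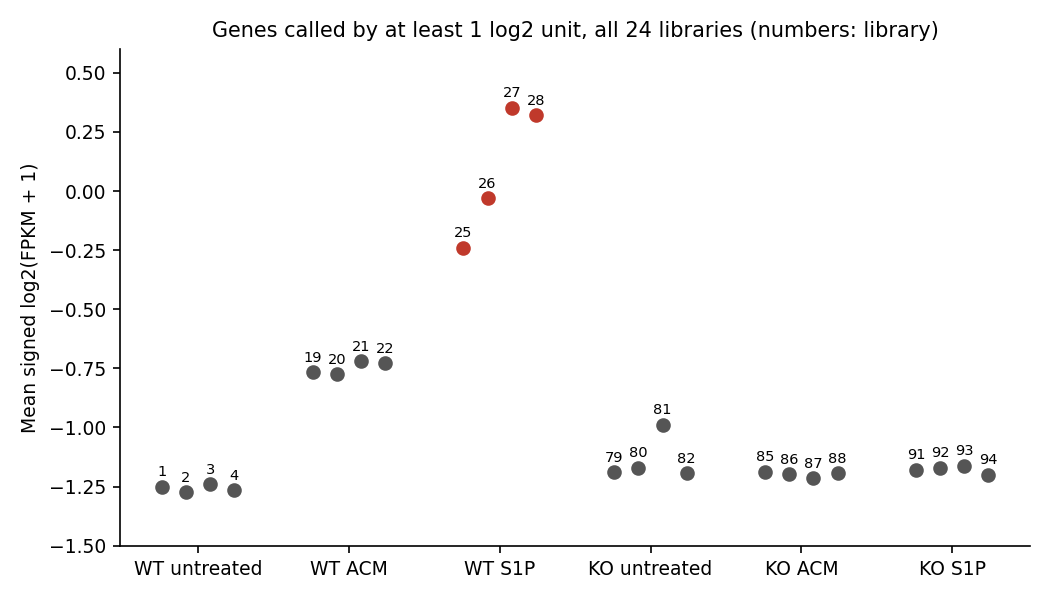
Mean over the 322 genes of log2(FPKM + 1), counted as positive for genes that rose with S1P in WT cells and as negative for those that fell (y axis), in every library of the 6 groups. WT S1P libraries lie from -0.24 to 0.35, WT untreated from -1.27 to -1.24, WT ACM from -0.78 to -0.72, and KO S1P from -1.20 to -1.16. KO untreated libraries lie from -1.19 to -0.99, library 81 being the highest, and KO ACM from -1.21 to -1.19. The genes and signs come from the WT S1P and untreated libraries, so the place of those 2 groups is built in.

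A last comparison set WT S1P cells against WT cells given ACM, serum-free medium in which apoptotic AML12 cells had been kept (a line of mouse hepatocytes, killed with palmitate). Both have the same 4 untreated controls, so they were tested against each other directly, 4 libraries against 4. Limma called 4211 of 10735 genes (39.2%), 1874 higher and 2337 lower with S1P (2708 and 1617 after rescaling to a common sum). Most genes named here were chosen for a difference in these S1P libraries, so their values against ACM are descriptions. Slc7a11 was higher with S1P than with ACM by 1.77, Cdkn1c by 2.79 and Pla2g7 by 1.27. Mmp9, C3 and Irf7 differed by -0.49, -0.44 and -0.71, lower with S1P. Ifitm1, which S1P lowered evenly (-2.28 ± 0.06), differed by -0.39. Acod1 and S1pr2 were not called between the treatments, at -0.12 and 0.10.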

How the data were processed

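RNA of macrophage cultures was sequenced after oligo(dT) enrichment, per the labels' protocols. The authors deposited 1 table of FPKM values for 24 libraries. The submitters' processing notes name the builds mm10 and GRCm38 and, as tools, STAR, STAR-Fusion, HISAT2, StringTie, featureCounts, DESeq and edgeR, with no role or version; whether counting used strand is not stated there. Depth was recovered from FPKM and GENCODE M21 exon lengths, as 96.4 to 96.7% of values came out as whole reads within 0.05.

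Genes that reached an FPKM of 1 in 4 or more of the 8 libraries were tested with limma 3.58.1 in R 4.3.3 (trend, 2-sided moderated test, Benjamini-Hochberg) on log2(FPKM + 1), after a check on simulated data. KO and ACM comparisons used the same filter over their own libraries. Alternatives were another pseudocount, filters, scalings, weights, all 24 libraries, voom on recovered reads and each library left out. No 2 replicates of a group were alike within sampling noise.

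The genes, lists and tests were chosen with earlier results of these data known. Named by rule were Trem2, the S1P receptors, the 15 largest changes each way (mean FPKM at least 5, no overlap), the 8 widest and the 8 most even genes, and up to 4 genes per role with the smallest adjusted p. Genes named outside the rule (Acss2, Asns, Ccnd2, Cdk1, Gsta3, Hmgcs1, Ifi27l2a, Idh1, Mki67, Top2a, Txnrd1, and genes named without a value) were chosen after their values were seen. Promoters are from RefSeq, GRCm38.p6. Values of some genes that the rule names are not reported here.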

Additional observations from a re-analysis of the deposited data

Results flagged for a closer look

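The response to S1P differed between WT and KO cells in 4373 of 11187 genes by limma's interaction term. The genes named next were taken for their WT difference, which the interaction reuses, so its sign is largely set by that choice and the values are descriptions. Among the 5 largest rises the interaction, KO minus WT on the log2(FPKM + 1) scale, was -5.73 for Cdkn1c, -4.09 for Serpinb9b, -3.71 for Cox6a2, -3.53 for Procr and -2.89 for Sh2d6. Among the 5 largest falls it was 2.75 for Cbr2, 2.94 for Mmp8, 2.61 for Fcrls, 2.98 for Ifitm1 and 2.77 for F13a1. These values include KO untreated library 81. Without it the interaction was 2.44 for Cbr2, 2.345 for Fcrls, 2.25 for F13a1, -5.56 for Cdkn1c and -3.49 for Cox6a2. The KO difference of F13a1 was 0.59 with library 81 and 0.07 without it. One library stood apart among 96 groups of 4 whose values are printed: F13a1 had an FPKM of 9.60 in untreated library 1 and 8.33 to 8.45 in the other 3. Chance flags about 1 group in 20.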

How the results depend on the processing

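The counts of genes called with a difference of at least 1 moved most with the setting: 542 with a pseudocount of 0.1 and 523 with voom on recovered reads, against 322. Leaving out each library in turn gave 4589 to 5664 genes called, 2233 to 2719 higher, 2356 to 2945 lower and 251 to 422 with a difference of at least 1. In KO cells 2 genes were called without untreated library 81, against 0 with it. The response index kept its order under each scaling tried. Of 147 genes of the text, 139 kept their call in every setting run and none changed direction; Asns was called with all 24 libraries in the fit, H2-Aa was not, and Lyz2 was not called with no filter. The cause of these changes was not tested. No paired analysis was possible because the groups share no replicate numbers. With 4 libraries a group and no named cultures, the precision is that of these libraries.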
